A study of Rattus norvegicus with 21 samples.

Results

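Astrocytes lysed straight after isolation from the forebrain of Sprague Dawley rats were compared between postnatal day 7 (P7) and postnatal day 1 (P1). The comparison rests on 6 of the 21 arrays of the study, 3 titled IP-Astrocytes P7 and 3 titled IP-Astrocytes P1, picked by their titles alone, and it was read across 14217 genes. Both groups are untreated cells caught by immunopanning, in which an antibody on a dish holds the cells that carry a surface protein, here the integrin ITGB5, and neither group was cultured. The animals carry no transgene in the labels. The labels call the arrays biological replicates without saying whether 1 or several pups went into each. The p-values thus measure spread between preparations. That spread was pooled within all 7 groups of the study, cultures included, and not taken from the 6 fresh arrays alone. Of the 15 other arrays, only 6 are used below by name: ITGB5-panned cells of P1 and of P7 rats grown for 7 days with the growth factor HBEGF (3 arrays each). The characteristics of the P7 cultures give p1, against P7 in their title and source name, and the latter were used.

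Forebrain astrocytes arise around birth from radial glia and then multiply locally during the first postnatal weeks. Over the same weeks they extend fine processes around forming synapses and take up the work of mature astrocytes: clearing glutamate and GABA, passing glutamine back to neurons, buffering potassium and water, supplying lactate and lipids, and engulfing synapses. Thyroid hormone is among the signals known to push this maturation. Gfap, the glial filament protein, Slc1a2, the glutamate transporter GLT-1, and Slc1a3, the glutamate transporter GLAST, are the usual marks of the lineage.

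The values are log2 of an intensity, so a difference of 1 is a 2-fold difference, and a probe set's level cannot be set against another's. The median intensity of the 6 fresh arrays lay between 138 and 143, and the median of all log2 values was 7.11. Rank correlations between arrays ran from 0.988 to 0.995 within an age and from 0.975 to 0.984 between the ages. Of 27 measured astrocyte core genes, 1 lay below that median at P1 and 0 at P7, and their mean log2 intensity ran from 11.64 to 11.90 on the P1 arrays and from 12.58 to 12.75 on the P7 arrays. Astrocyte markers were thus read on every array, and so were some markers of other cells. Among the brightest of their lists, Tubb2b, listed here for young neurons, read 14.07 and 13.87 on average at P1 and P7. Olig1, listed for oligodendrocyte progenitors, read 13.33 and 13.19. Others were lower. Of 20 young neuron markers 5 lay below the median of all values at P1 and 10 at P7. Of 11 oligodendrocyte progenitor markers 5 did at each age. Such levels do not show how many other cells were present. Itgb5, the panning antigen, read 11.94, 12.18 and 12.05 at P1 and 11.86, 12.14 and 12.34 at P7, so its ranges overlapped (change 0.06, adjusted p = 0.952).

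Far more genes were called higher than lower in the older cells, though only 47.6% of all genes had a positive change. A gene was called where limma's adjusted p (Benjamini-Hochberg over all probe sets) was under 0.05 and the log2 change at least 1 in size. By this rule 195 genes were higher at P7 (1.37% of the genes tested) and 26 lower (0.183%), 221 in all (1.55%). These shares are the background for the list counts below. The lists were written with earlier results of these data known, so their counts are a description only. In each of the 221 the 3 P7 arrays lay wholly above or below the 3 P1 arrays, as they did for 4118 genes in all (29%). The median change of all genes was -0.02 and 5% to 95% of genes lay between -0.47 and 0.73, with a median standard error (SE) of 0.17. Rises of at least 2 numbered 30 and falls of that size 5, and 69 of the risen genes had a P1 mean below the median of all values. Of the 221 calls, 105 held with any 1 of the 6 arrays left out. The total fell to 136 without P1 replicate 2 (120 higher), 152 without P7 replicate 1 (128 higher), and the falls numbered 11 without P7 replicate 2, 16 without P1 replicate 2 and 15 without P1 replicate 3.

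**Figure D1:**
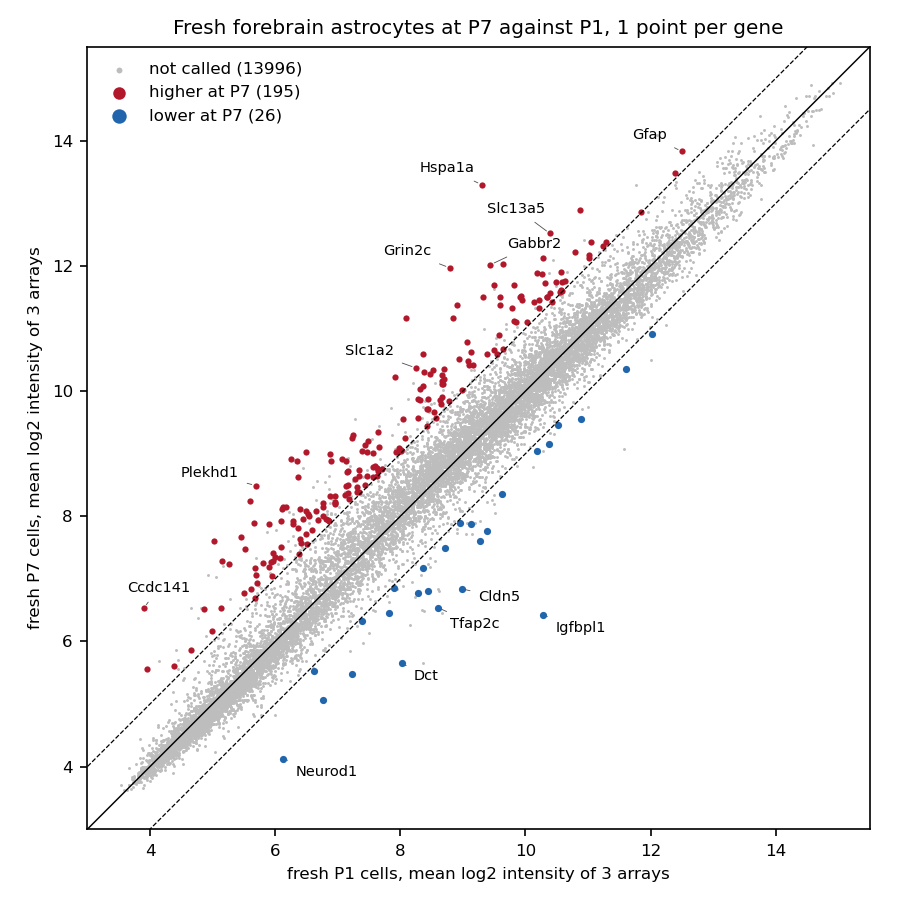
Mean log2 intensity of each of 14217 genes in the 3 fresh P1 arrays (x axis) and the 3 fresh P7 arrays (y axis). The solid line marks equality and the dashed lines a log2 change of 1 either way. The 195 red points (higher at P7) spread over the whole range of P1 levels, while the 26 blue points (lower at P7) are led by Igfbpl1, at 10.28 on average at P1 and 6.42 at P7.

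Genes for handling glutamate and GABA held several of the clearest rises. Grin2c, the NMDA receptor subunit found in astrocytes, had the second-largest rise, Slc1a2 rose about 4-fold, and Gabbr2, a subunit of the metabotropic GABA-B receptor, rose about 6-fold. Other members of the same lists were not called, among them Slc1a3 and Glul, the enzyme that makes glutamine, and several of these were higher at P7 on all arrays.

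Grin2c read 8.71, 8.56 and 9.11 on the P1 arrays and 12.05, 12.21 and 11.66 on the P7 arrays. The 2 ages were thus separated by more than 2 log2 units at their nearest arrays (change 3.18, SE 0.21, adjusted p = 1.82e-07). It was the only 1 of 19 measured glutamate receptor genes to be called, and the list's median change was -0.10. Grm3, the metabotropic receptor that marks young and adult astrocytes, was 0.67 higher (adjusted p = 0.312), while Gria1 and Gria3, AMPA receptor subunits, were both at -0.65 (adjusted p = 0.662 and 0.681).

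Slc1a2 read 8.10, 8.36 and 8.28 at P1 and 10.47, 10.51 and 10.12 at P7 (change 2.12, SE 0.20, adjusted p = 1.05e-05). A further probe set of it changed by 1.57 and was called too. Slc38a3, which exports the glutamine made from captured glutamate, went from 11.35, 11.24 and 11.27 to 12.40, 12.40 and 12.37. That change of 1.10 (adjusted p = 0.0166) was lost without P7 replicate 1 or P1 replicate 2 or 3 (adjusted p up to 0.0661). Slc38a5, another glutamine carrier, which is also among the endothelial markers used here, fell from 6.86, 6.95 and 7.90 to 5.48, 5.88 and 5.08 (change -1.75, adjusted p = 0.000698). In all, 2 of 17 measured genes of glutamate uptake and the glutamine cycle rose (11.8%, against 1.37% of all genes). Of the same list 1 fell (5.88%, against 0.183%), and its median change was 0.25. Slc7a11, the cystine and glutamate exchanger, was 1.38 higher but not called (adjusted p = 0.186), and Slc1a3 (0.19, adjusted p = 0.678) and Glul (0.25, adjusted p = 0.528) were not called either.

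Of 17 measured genes for GABA and glycine, 5 rose and 0 fell, against 1.37% and 0.183% of all genes. The list's median change of 0.75 was the highest of the 22 pathway lists. As these lists were written with earlier results of these data known, such shares and ranks support nothing. Gabbr2 read 9.64, 9.22 and 9.45 at P1 and 12.30, 11.88 and 11.87 at P7 (change 2.58, adjusted p = 0.000884). Its other probe set changed by 0.57, so the size depends on which is read. Gabbr1, the partner subunit, was at 0.11 (adjusted p = 0.871). Slc7a10, which exchanges serine and glycine, rose from 10.02, 10.09 and 10.68 to 11.76, 12.04 and 11.81 (change 1.61, adjusted p = 0.000918). Gabrb2, a subunit of the GABA-A receptor channel, rose by 1.56 (adjusted p = 0.00867) on this probe set and by 0.00 on its other.

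Slc6a11, the GABA transporter GAT-3 of astrocytes, read 6.53, 7.50 and 6.85 at P1 and 7.76, 8.70 and 8.23 at P7. The lowest P7 array exceeded the highest P1 array by a small margin, and the change of 1.27 (adjusted p = 0.00795) was not called when only the 6 fresh arrays were fitted. Aldh5a1, the enzyme that ends GABA breakdown, rose by 1.29 (adjusted p = 0.0232), a call gone on removing any single array (adjusted p up to 0.0782) and absent from its other probe sets, of which the lowest changed by -0.16. Gabrg1 (0.98, adjusted p = 0.125), Maob (0.89, adjusted p = 0.304) and Gabra2 (0.86, adjusted p = 0.401) were higher without being called.

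**Figure D2:**
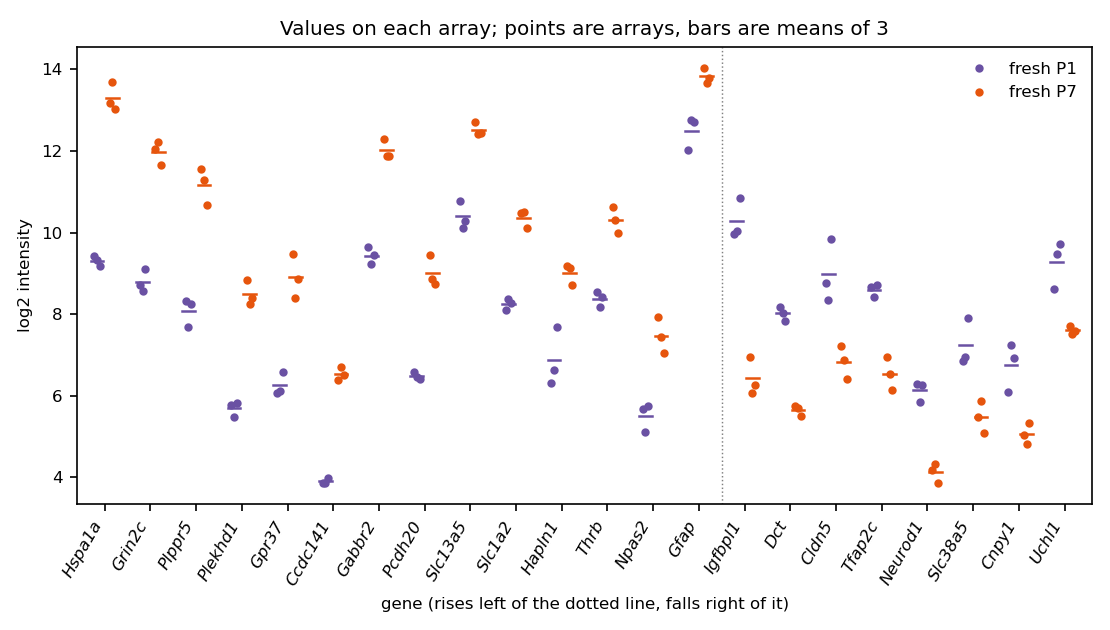
Log2 intensity on each of the 6 fresh arrays for 14 genes that rose (left of the dotted line) and 8 that fell (right of it). Points are single arrays, purple for P1 and orange for P7, and bars are means of 3 arrays. The P1 and P7 points do not overlap for any of the 22 genes, and the P1 arrays of Hapln1 and Cldn5 are spread the most.

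Receptors for other transmitters and peptides were gathered in a list of 48 measured genes chosen after their values had been seen, and 8 of them rose (16.7%, against 1.37% of all genes) and 0 fell (against 0.183%). Since the list was drawn up from such values, the share supports nothing. Gpr37l1, a receptor for secreted glial factors that astrocytes carry, read 10.54, 10.86 and 11.21 at P1 and 12.88, 13.10 and 12.74 at P7 (change 2.03, adjusted p = 0.00312). Its relative Gpr37, which mature oligodendrocytes also carry, rose from 6.07, 6.12 and 6.57 to 9.47, 8.40 and 8.86 (change 2.66, adjusted p = 0.00201). Gprc5b, an orphan receptor, rose by 1.78 (adjusted p = 0.00408). All 3 held with any 1 array left out.

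Ntsr2, the neurotensin receptor of astrocytes, went from 8.59, 8.72 and 9.39 to 12.14, 11.17 and 10.82 (change 2.47, adjusted p = 0.0343), and the call was gone on removing any single array (adjusted p up to 0.146). Adra2a, an adrenergic receptor, rose by 1.82 (adjusted p = 0.017), lost without P7 replicate 1 or P1 replicate 2 or 3 (adjusted p up to 0.0861), and its other probe set changed by 0.27. Gpr146 rose by 1.57 (adjusted p = 0.0212), lost without P7 replicate 1 or P1 replicate 1 or 2 (adjusted p up to 0.0896). The count of 8 became 4 without P7 replicate 1, 5 without P1 replicate 1 and 3 without P1 replicate 2. The median change of the list was -0.01, and 34 of its 48 genes lay below the median of all values at P1, as did 34 at P7.

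Among genes for potassium, water and ion transport only Kcna2, a voltage-gated potassium channel, was called, of 20 measured. It read 9.30, 8.73 and 8.79 at P1 and 10.93, 10.47 and 10.17 at P7 (change 1.58, adjusted p = 0.0127). The call was lost without P7 replicate 1 or P1 replicate 2 or 3 (adjusted p up to 0.0703), and its other probe set changed by 0.09. The list as a whole sat above all genes, with a median of 0.46, and 16 of its 20 members had a positive change. Aqp4, the water channel of astrocyte endfeet, read 13.82, 13.59 and 13.86 at P1 and 14.43, 14.36 and 14.40 at P7, so its arrays did not overlap, yet its change of 0.64 was not called (adjusted p = 0.17). Fxyd1, a regulator of the sodium pump, was 1.17 higher (adjusted p = 0.151), and the potassium channels Kcnk2 and Kcnk10 were at -0.94 and -0.68 (adjusted p = 0.491 and 0.381).

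Contacts between cells and the matrix around them held some of the largest rises. Plppr5, a membrane protein that promotes the outgrowth of fine processes, read 8.33, 7.68 and 8.25 at P1 and 11.56, 11.28 and 10.67 at P7 (change 3.08, SE 0.58, adjusted p = 0.00701), and both of its probe sets were called. Pcdh20, a protocadherin, rose from 6.58, 6.47 and 6.41 to 9.46, 8.86 and 8.74 (change 2.53, adjusted p = 0.000192). Cldn10, a claudin found in astrocytes, rose from 9.46, 9.20 and 10.24 to 12.24, 12.08 and 11.78 (change 2.40, adjusted p = 0.0107), and the call did not hold without P1 replicate 2 (adjusted p = 0.0611).

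Of 16 measured genes for gap junctions and adhesion, 2 rose (12.5%, against 1.37% of all genes) and 0 fell, with a median of 0.61. The count of 2 became 5 when only the 6 fresh arrays were fitted. Gja1, connexin 43, the main gap junction protein of astrocytes, was 0.40 higher (adjusted p = 0.0328, short of the fold limit). Gjb6, connexin 30, which appears late in astrocytes, read 6.10, 7.19 and 6.05 at P1 and 9.10, 8.74 and 8.47 at P7. These arrays do not overlap, but the spread of its probe set over all 21 arrays was wide (SE 1.28), and its change of 2.33 was not called (adjusted p = 0.371).

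Hapln1, the link protein that ties hyaluronan to proteoglycans, read 6.31, 6.62 and 7.68 at P1 and 9.19, 9.12 and 8.71 at P7 (change 2.13, adjusted p = 0.000697). All 3 of its probe sets were called, with changes from 2.13 to 3.20. Adamts5, a protease that cuts such proteoglycans, rose by 1.36 (adjusted p = 0.00494). These 2 were the calls among 20 measured genes of the perineural matrix (10%, against 1.37% of all genes). The list's median change was -0.06. Ncan, the proteoglycan neurocan, was 1.08 higher (adjusted p = 0.356) and Has2, which makes hyaluronan, was at -0.82 (adjusted p = 0.223).

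Genes that feed and clear metabolites rose singly rather than as whole pathways. Slc13a5, the plasma membrane carrier of citrate, read 10.78, 10.12 and 10.29 at P1 and 12.70, 12.41 and 12.45 at P7 (change 2.13, SE 0.19, adjusted p = 9.63e-06). In glycolysis and glycogen use, 3 of 23 measured genes rose (13%, against 1.37% of all genes) and 0 fell, with a median of 0.23. Pfkp, the platelet form of phosphofructokinase, went from 9.18, 8.89 and 9.12 to 11.08, 10.75 and 10.50 (change 1.71, adjusted p = 0.000528). Pdk4, which holds pyruvate back from the mitochondria, rose by 1.69 (adjusted p = 0.00298), its P1 values of 9.77, 9.87 and 10.92 being more spread than its P7 values of 11.87, 11.87 and 11.90.

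Pygm, a glycogen phosphorylase, rose by 1.40 (adjusted p = 0.0128), and the call did not hold without P7 replicate 3 (adjusted p = 0.0534). Ldha, the lactate dehydrogenase subunit, was at -0.70 and not called (adjusted p = 0.0792), and Slc2a1, the glucose transporter, was at 0.56 (adjusted p = 0.377). Of 17 genes for serine, glycine and folate metabolism limma called 0 (0 higher and 1 lower at unadjusted p under 0.05), and of 22 antioxidant genes also 0 (1 higher and 2 lower at unadjusted p under 0.05).

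Lipid genes leaned upward with few calls. Of 26 measured genes for lipoproteins and lipid handling, 2 rose (7.69%, against 1.37% of all genes), with a median of 0.32. Acsl6, which loads long fatty acids onto coenzyme A, read 9.99, 9.59 and 9.88 at P1 and 11.95, 11.60 and 11.55 at P7 (change 1.88, adjusted p = 0.00492), and both of its probe sets were called. Abca1, which exports cholesterol to lipoproteins, rose by 1.12 (adjusted p = 0.0173), lost without P7 replicate 1 or 2 or P1 replicate 2 or 3 (adjusted p up to 0.0781). All 20 measured genes of cholesterol synthesis had a positive change, with a median of 0.31, but only Tm7sf2, a sterol reductase, was called (1.04, adjusted p = 0.0104, and 0.05 without P1 replicate 2, where it was not called). Dhcr7, which makes cholesterol in the last step, was 0.70 higher (adjusted p = 0.00137, short of the fold limit).

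Mertk, which lets astrocytes take up debris and synapses, read 7.49, 7.33 and 7.49 at P1 and 9.50, 9.41 and 8.52 at P7. Its change of 1.71 (adjusted p = 0.00485) held with any 1 array left out, and its other probe set changed by 0.80. With Abca1 it made 2 of 18 phagocytosis genes that rose (11.1%, against 1.37% of all genes), with a list median of 0.30. C1qa, a complement gene of microglia in the same list, was 1.34 higher (adjusted p = 0.366) and Lrp1 0.99 higher (adjusted p = 0.0655). Of 16 secreted factors that act on synapses limma called 0 (4 higher and 1 lower at unadjusted p under 0.05). A fit of only the 6 fresh arrays called 1 higher and 1 lower. Chrdl1, a secreted factor that promotes synapse maturation, went from 8.33, 7.96 and 8.08 to 10.08, 9.84 and 9.68, without overlap but not called (change 1.74, SE 0.78, adjusted p = 0.255).

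Thrb, the beta receptor of thyroid hormone, and Hr, a corepressor whose gene that hormone is known to drive in brain, both rose. Thrb read 8.54, 8.17 and 8.43 at P1 and 10.63, 10.30 and 9.99 at P7 (change 1.93, adjusted p = 0.0025). Of its 4 probe sets 2 were called, and the lowest changed by -0.14. Hr read 6.06, 6.28 and 6.74 at P1 and 7.65, 7.77 and 8.02 at P7 (change 1.46, adjusted p = 0.0027). These were the only calls of 16 measured genes of thyroid hormone transport and response (12.5%, against 1.37% of all genes). The list median was -0.09. Dio2, which makes the active hormone in astrocytes, was 0.70 higher (adjusted p = 0.0252, short of the fold limit). Ttr (-0.90, adjusted p = 0.782), which choroid plexus makes in large amounts, and Crym (-0.84, adjusted p = 0.26), a binder of the hormone, were not called.

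Genes of the circadian clock, a list of 20 measured genes also chosen after their values had been seen, held 5 rises (25%, against 1.37% of all genes) and 0 falls, with a median of 0.55. Nr1d1, the repressor REV-ERB alpha, read 8.44, 8.64 and 8.93 at P1 and 9.93, 10.21 and 10.21 at P7 (change 1.45, adjusted p = 0.000471). Dbp, a clock output factor, went from 7.86, 8.35 and 8.72 to 10.08, 9.75 and 9.74 (change 1.54, adjusted p = 0.00461). Npas2, a partner of Bmal1, went from 5.68, 5.10 and 5.74 to 7.93, 7.45 and 7.04 (change 1.97, adjusted p = 0.000865).

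The calls of Bhlhe41 (1.33, adjusted p = 0.0167) and Rorb (1.03, adjusted p = 0.0263) were less firm. Bhlhe41 was lost without P7 replicate 1 or 3 or P1 replicate 2 (adjusted p up to 0.0837), and Rorb without P7 replicate 3 or any 1 of the P1 arrays (adjusted p up to 0.118) and under quantile normalization and median centring. The count of 5 became 3 without P7 replicate 3 or without P1 replicate 2. Bmal1 itself, the core activator, was at -0.02 (adjusted p = 0.972). The hour of isolation is not among the details used here, and its part was not tested.

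**Figure D3:**
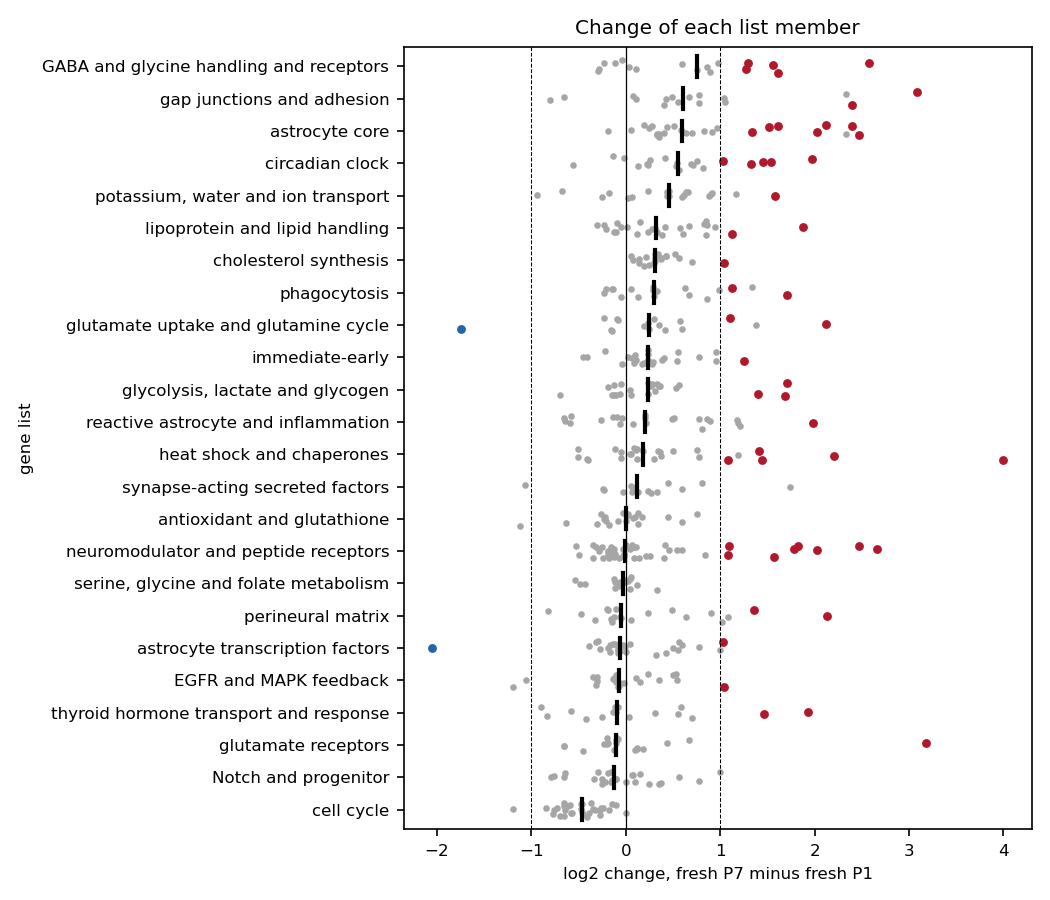
Log2 change between fresh P7 and fresh P1 cells (x axis) of every measured member of 22 pathway lists and of the clock and receptor lists chosen later (y axis, ordered by median). Each point is a gene, red where called higher, blue where called lower and grey where not called, black bars are medians and dashed lines mark a change of 1. The GABA list has the highest median, 0.75, and the cell cycle list the lowest, -0.47, with 0 called points.

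The single largest rise of the comparison was a heat shock gene. Hspa1a, the stress-induced HSP70 chaperone, read 9.42, 9.32 and 9.17 at P1 and 13.18, 13.70 and 13.03 at P7 (change 4.0, SE 0.29, adjusted p = 6.01e-07), a 16-fold difference. Its probes cannot be told apart with certainty from those of its near-identical neighbour Hspa1b. Of 27 measured heat shock and chaperone genes 5 rose (18.5%, against 1.37% of all genes) and 0 fell (against 0.183%). The list median was 0.18, so the large rises were those of some members.

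Cryab, the small heat shock protein alpha-B crystallin, rose from 9.36, 9.54 and 9.57 to 11.69, 11.77 and 11.64 (change 2.21, adjusted p = 0.00121). Hsph1, a nucleotide exchange factor of HSP70, rose from 10.55, 10.85 and 10.96 to 11.54, 12.67 and 12.46 (change 1.44, adjusted p = 0.00143), with P7 replicate 1 the lowest of its group. The co-chaperones Dnajb4 (1.41, adjusted p = 0.000865) and Dnajb1 (1.08, adjusted p = 7.03e-05) rose too, and without P7 replicate 2 Dnajb1 fell under the fold limit.

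Hspb1 was 1.19 higher without being called (adjusted p = 0.279), as was Hspa2 (0.77, adjusted p = 0.229). The endoplasmic reticulum cochaperone Dnajb9 was 0.75 higher (adjusted p = 0.00649, short of the fold limit), while the transcription factor Hsf1 was at -0.05 (adjusted p = 0.926) and the HSP90 form Hsp90ab1 at -0.05 (adjusted p = 0.911). Heat shock genes are known to respond to handling of cells, and the sources used here give no handling times, so their part was not tested.

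Heat shock factor binds repeats of the 3-base unit GAA in alternating direction, so the promoters of these genes are shown with such repeats marked. The RefSeq promoter table (build GRCr8) held 24 of the 27 members, among them 3 of the 5 that rose, and the 250 bases before the start site were searched on both strands. A 2-unit repeat (GAANNTTC or TTCNNGAA, N being any base) and a 3-unit repeat (GAANNTTCNNGAA or TTCNNGAANNTTC, which contains the shorter one) were counted. Capitals mark the matched bases, and each sequence runs 5′ to 3′ on the strand of the gene.
Hspa1a, chr20:3859506-3859755, plus strand: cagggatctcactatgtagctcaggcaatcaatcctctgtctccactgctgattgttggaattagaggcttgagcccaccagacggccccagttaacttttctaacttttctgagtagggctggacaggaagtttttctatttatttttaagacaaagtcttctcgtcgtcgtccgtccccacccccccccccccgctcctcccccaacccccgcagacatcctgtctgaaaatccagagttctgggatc
Hsph1, chr12:10427118-10427367, plus strand: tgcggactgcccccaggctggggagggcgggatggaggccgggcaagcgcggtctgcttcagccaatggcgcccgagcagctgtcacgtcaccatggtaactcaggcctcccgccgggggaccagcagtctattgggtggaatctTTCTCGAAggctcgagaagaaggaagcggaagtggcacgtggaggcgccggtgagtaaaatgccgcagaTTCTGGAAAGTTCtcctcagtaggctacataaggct
Dnajb1, chr19:41431142-41431391, minus strand: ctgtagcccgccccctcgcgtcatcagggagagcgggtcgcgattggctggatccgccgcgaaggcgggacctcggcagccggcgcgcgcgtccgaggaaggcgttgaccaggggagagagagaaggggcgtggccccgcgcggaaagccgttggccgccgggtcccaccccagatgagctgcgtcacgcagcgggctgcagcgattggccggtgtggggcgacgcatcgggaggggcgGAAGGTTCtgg

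Hsph1 held 3 matches of 2 units and 1 of 3 units, which contains some of them and lies nearest the start site, Dnajb1 held 1 match of 2 units, and the window printed for Hspa1a, which ends at the RefSeq start, held 0. Among list members with a promoter, 2 of 3 that rose and 10 of 21 not called had a 2-unit match (66.7% and 47.6%). The share was 13.2% of 27457 promoters in the table and 10.2% of those of 11733 measured genes. A 3-unit match was in 1 of the 3 and 2 of the 21, against 0.597% of all promoters and 0.366% of those of measured genes. Among all genes that rose, 20 of 157 with a promoter had a 2-unit match (12.7%), between the 10.2% of measured genes and the 13.2% of all promoters. A match is a description of letters, and its absence says only that they are not in this window.

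Immediate-early genes, which respond to stimulation and to tissue dissociation, held 1 call of 26. Egr4 went from 7.21, 6.98 and 6.65 to 8.09, 7.29 and 9.20 (change 1.25, adjusted p = 0.0343). It was lost without P7 replicate 1 or 3 or P1 replicate 2 or 3 (adjusted p up to 0.151) and when only the 6 fresh arrays were fitted. Dusp1 and Arc were both 0.95 higher without being called (adjusted p = 0.167 and 0.133), and the list's median was 0.24.

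Astrocyte markers were called more often than all genes, though some of the most used ones were not. Gfap read 12.03, 12.76 and 12.70 at P1 and 14.04, 13.67 and 13.79 at P7 (change 1.34, adjusted p = 0.0159), and the call did not hold without P7 replicate 1 or P1 replicate 1 (adjusted p up to 0.0724). Agt, angiotensinogen, made by astrocytes in brain, rose from 9.77, 9.79 and 10.26 to 11.69, 11.40 and 11.27 (change 1.52, adjusted p = 0.00113). In the astrocyte core list 7 of 27 genes rose (Slc1a2, Ntsr2, Cldn10, Gpr37l1, Slc7a10, Agt and Gfap) and 0 fell, with a median of 0.59, and 26 of the 27 had a positive change. That is 25.9% called higher, against 1.37% of all genes, and the arrays of 23 of the 27 did not overlap, against 29% of all genes. The list was written with earlier results of these data known, so these shares describe it and support nothing. Aldh1l1, the folate enzyme used as a general astrocyte mark, read 12.52, 12.65 and 12.32 at P1 and 12.38, 12.53 and 12.76 at P7 and overlapped (change 0.06, adjusted p = 0.929). S100b was 0.51 higher (adjusted p = 0.177).

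Of 27 astrocyte transcription factors 1 rose, Rorb, and 1 fell, Tfap2c, with a median of -0.06. Tfap2c, an AP-2 factor of neural progenitors, read 8.67, 8.41 and 8.71 at P1 and 6.96, 6.53 and 6.13 at P7 (change -2.05, adjusted p = 0.00161). Hes5, a Notch target, was 1.00 higher (adjusted p = 0.343), and Hes1, another, 0.78 higher (adjusted p = 0.208). In the Notch and progenitor list limma called 0 of 26 (2 higher and 2 lower at unadjusted p under 0.05). Nes, nestin, was at -0.79 (adjusted p = 0.281), and Vim, vimentin, a filament protein of immature glia singled out after its values were seen, was at -0.66 (adjusted p = 0.00408, short of the fold limit).

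Cell cycle genes were lower in the older cells without a call. None of the 32 measured members had a positive change above 0.00, their median was -0.47 against -0.02 for all genes, and limma called 0 (0 higher and 8 lower at unadjusted p under 0.05). A fit of only the 6 fresh arrays called 1 of them lower. Ccnd1, cyclin D1, read 12.10, 12.15 and 12.50 at P1 and 10.87, 11.20 and 11.08 at P7, without overlap (change -1.20, SE 0.46, adjusted p = 0.174). E2f1, which switches on replication genes, was at -0.85 (adjusted p = 0.0506), and Mcm3, of the replicative helicase, at -0.77 (adjusted p = 0.219). The summed intensity of the list ran from 84500 to 88500 on the P1 arrays and from 55500 to 70500 on the P7 arrays.

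In the EGF receptor and MAPK feedback list 1 of 22 rose and 0 fell, while a fit of only the 6 fresh arrays called 0 higher and 2 lower. Egf went from 7.42, 7.42 and 7.20 to 8.34, 7.99 and 8.82 (change 1.04, adjusted p = 0.032), a call gone on removing any array but P7 replicate 2 (adjusted p up to 0.142), under quantile normalization, and when only the 6 fresh arrays were fitted. Egfr, the receptor, was at 0.35 (adjusted p = 0.523) and Hbegf, its ligand used in the cultures, at -0.10 (adjusted p = 0.95), and both overlapped between the ages. Of 23 reactive astrocyte genes 1 rose, the interferon-induced Gbp2 (1.98, adjusted p = 0.0389), gone on removing any single array (adjusted p up to 0.119). The list's count was 2 when only the 6 fresh arrays were fitted. Ccl3 (1.21, adjusted p = 0.252) and Ccl2 (1.18, adjusted p = 0.654), both chemokines, were not called.

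Among the other largest rises, Ccdc141, a coiled-coil protein, had the smallest adjusted p of those named. It read 3.86, 3.87 and 3.98 at P1, near the bottom of the scale, and 6.39, 6.70 and 6.50 at P7 (change 2.62, SE 0.12, adjusted p = 2.99e-09). Plekhd1 rose from 5.76, 5.47 and 5.83 to 8.84, 8.25 and 8.39 (change 2.81, adjusted p = 0.000471). Il12a, which encodes a cytokine subunit, rose by 2.21 (adjusted p = 0.000253), Pamr1 by 2.33 (adjusted p = 0.00408) and Nat8f5 by 2.26 (adjusted p = 0.00334).

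Gsta1, a glutathione transferase whose probes may read its close relatives too, rose from 5.00, 5.78 and 6.20 to 8.56, 7.68 and 7.42 (change 2.22, adjusted p = 0.00161). Fndc1 (2.57, adjusted p = 0.0222; gone on removing any array but P7 replicate 2, adjusted p up to 0.111), Car3, a carbonic anhydrase (2.31, adjusted p = 0.0294; lost without P7 replicate 1 or 3 or P1 replicate 1 or 3, up to 0.132), and Efhd1 (2.24, adjusted p = 0.0481; gone on removing any single array, up to 0.133) were less firm. In Fndc1 and Car3, P7 replicate 1 was the highest array, at 8.63 and 10.95, against 6.72 and 7.44 and against 9.87 and 9.85 on the other P7 arrays.

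The falls were fewer, and 7 of the 26 were members of the marker lists of other cell types (Igfbpl1, Neurod1, Uchl1, Gap43, Cldn5, Slc38a5 and Otx2). What share of all genes these lists hold was not computed. The lists were written with earlier results of these data known, so this count is a description only. Igfbpl1, a gene of young neurons, read 9.96, 10.05 and 10.84 at P1 and 6.94, 6.06 and 6.27 at P7. It had the largest fall of all (change -3.86, SE 0.96, adjusted p = 0.0356), but the call was gone on removing any single array (adjusted p up to 0.136). Dct, an enzyme of melanin synthesis also found in neural progenitors, fell from 8.18, 8.03 and 7.84 to 5.75, 5.69 and 5.51 (change -2.37, SE 0.13, adjusted p = 1.41e-08) and held in every such fit.

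Cnpy1 fell by 1.70 on the log2 scale (adjusted p = 0.00027), Sh3rf3 by 1.53 (adjusted p = 0.00724), Col22a1, a collagen, by 1.37 (adjusted p = 0.00603) and Nipsnap3b by 1.27 (adjusted p = 0.00765), and each held with any 1 array left out. Dach1, a transcription factor of progenitors, fell from 9.69, 9.47 and 9.01 to 8.06, 7.50 and 7.72 (change -1.63, adjusted p = 0.0168), lost without P7 replicate 2 or 3 or P1 replicate 1 or 2 (adjusted p up to 0.0674). Gng3, a G protein subunit of neurons, fell by 1.25 (adjusted p = 0.0372), gone on removing any array but P7 replicate 3 (adjusted p up to 0.123).

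Markers of other cells moved with age as well, and in these RNA pools fewer cells of a type and less RNA per cell cannot be told apart. Their part in the changes above was not tested. Of 24 neuron markers 2 fell (8.33%, against 0.183% of all genes) and 0 rose, with a median of -0.30. The summed intensity of these markers ran from 11500 to 12800 at P1 and from 8340 to 10600 at P7. Uchl1, a hydrolase of neurons, read 8.62, 9.47 and 9.73 at P1 and 7.71, 7.51 and 7.58 at P7 (change -1.67, adjusted p = 0.00608). Gap43, of growing axons, fell by 1.33 (adjusted p = 0.0473), gone on removing any single array (adjusted p up to 0.143), and its other probe set changed by 0.06. At P1 11 of the 24 lay below the median of all values, and 13 at P7.

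All 20 young neuron markers had a negative change, with a median of -0.73. Their summed intensity ran from 54700 to 63700 at P1 and from 41700 to 47000 at P7, and at P7 10 of the 20 lay below the median of all values. Igfbpl1 and Neurod1 (-2.01, adjusted p = 0.0384) were the 2 called (10%, against 0.183% of all genes). Neurod1 was also gone on removing any single array (adjusted p up to 0.127), so the count became 0 in each of those fits, and it was 7 when only the 6 fresh arrays were fitted. Eomes, of intermediate progenitors, read 8.71, 7.97 and 8.39 at P1 and 6.47, 5.31 and 5.21 at P7 without being called (change -2.69, SE 1.05, adjusted p = 0.184), and Dcx, doublecortin, was at -1.90 (adjusted p = 0.225).

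Microglia and macrophage markers were higher in the P7 preparations. Their median change was 1.04, 18 of 22 were positive and 2 were called (9.09%, against 1.37% of all genes). The summed intensity was 1930, 2490 and 2370 on the P1 arrays and 8390, 3260 and 4330 on the P7 arrays, so P7 replicate 1 stood highest by far. Csf1r, the growth factor receptor of microglia, read 5.45, 6.14 and 6.12 at P1 and 8.80, 7.06 and 7.77 at P7 (change 1.97, adjusted p = 0.0417), and P2ry12, a purine receptor of microglia, 5.25, 5.64 and 6.17 against 7.67, 7.18 and 6.32 (change 1.37, adjusted p = 0.0166). Csf1r was gone on removing any array but P7 replicate 2 and P2ry12 without P7 replicate 1 or P1 replicate 1 or 2 (adjusted p up to 0.182 and 0.0865), and neither was called when only the 6 fresh arrays were fitted. The list's count of 2 stayed within 1.5 times in that fit, so other members of the list were called there. Without P7 replicate 1 the count was 0, likewise without P1 replicate 1 or 2, and it was 1 without P7 replicate 3 or P1 replicate 3. Mpeg1, a macrophage gene among the 20 largest rises, read 5.91, 6.82 and 6.30 at P1 and 9.31, 7.68 and 9.64 at P7 (change 2.53, adjusted p = 0.0311; gone on removing any array but P7 replicate 2, up to 0.129).

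Of 18 endothelial markers 2 fell (11.1%, against 0.183% of all genes) and 0 rose. Cldn5, the tight junction protein of brain endothelium, read 8.77, 8.35 and 9.83 at P1 and 7.22, 6.88 and 6.41 at P7 (change -2.15, adjusted p = 0.000243), and Slc38a5, given above, was the other call. Pecam1, a defining endothelial gene, was near the bottom of the scale at both ages (4.34 and 4.35 on average). The summed intensity of the list was 4680 to 5210 at P1 and 5130 to 5570 at P7, but a few bright genes carry that sum. The mean log2 intensity of the list ran from 6.71 to 6.99 at P1 and from 6.25 to 6.56 at P7, 14 of the 18 changes were negative (median -0.28), and 0 were higher and 7 lower at unadjusted p under 0.05. Of 9 choroid plexus markers 1 fell (11.1%, against 0.183% of all genes), the transcription factor Otx2 (-1.65, adjusted p = 0.0201). Its call was lost without P7 replicate 2 or P1 replicate 2 or 3 (adjusted p up to 0.0831). It was also lost when only the 6 fresh arrays were fitted and with the mean over probe sets. The summed intensity of the choroid plexus list ran from 906 to 3210 at P1 and from 838 to 1440 at P7.

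Of 16 oligodendrocyte markers Gpr37 was the only call, while 3 were higher and 0 lower at unadjusted p under 0.05, and 2 were called when only the 6 fresh arrays were fitted. Cnp, an enzyme of myelin, was 0.50 higher (adjusted p = 0.0624), and Mbp, Mog and Mag, myelin genes picked after their values were seen, changed by -0.04, 0.06 and -0.05. The list's median was -0.04, and its summed intensity ran from 6230 to 7190 at P1 and from 7910 to 8790 at P7. Of 13 red cell and plasma markers Alb, albumin, rose from 5.92, 4.90 and 5.98 to 8.91, 7.87 and 7.97 (change 2.65, adjusted p = 0.0127), lost without P7 replicate 1 or P1 replicate 2 (adjusted p up to 0.0752). Hbb, the globin that carries most of that list's signal, was at -1.52 (adjusted p = 0.369), with P1 replicate 3 and P7 replicate 1 highest (list sums of 14400 and 11700 against 1100 to 2990 on the other 4).

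For 4 more marker lists limma called 0 genes. They were the oligodendrocyte progenitor list (11 measured, 0 higher and 0 lower at unadjusted p under 0.05), the mural list (15 measured, 2 and 0), the fibroblast and meningeal list (20 measured, 5 and 0) and the ependymal list (10 measured, 1 and 0). The mural list had a median of 0.23, with 11 of 15 changes positive, and sums of 3320 to 3610 at P1 and 4010 to 5610 at P7. The fibroblast and meningeal list had a median of 0.67 and sums of 6260 to 16600 at P1 and 11200 to 23300 at P7. Without P1 replicate 2, whose sum was the highest of its group, 2 genes of the list were called higher, and 1 was when only the 6 fresh arrays were fitted. Lum, a matrix proteoglycan of those cells, was 1.58 higher (adjusted p = 0.0906).

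**Figure D4:**
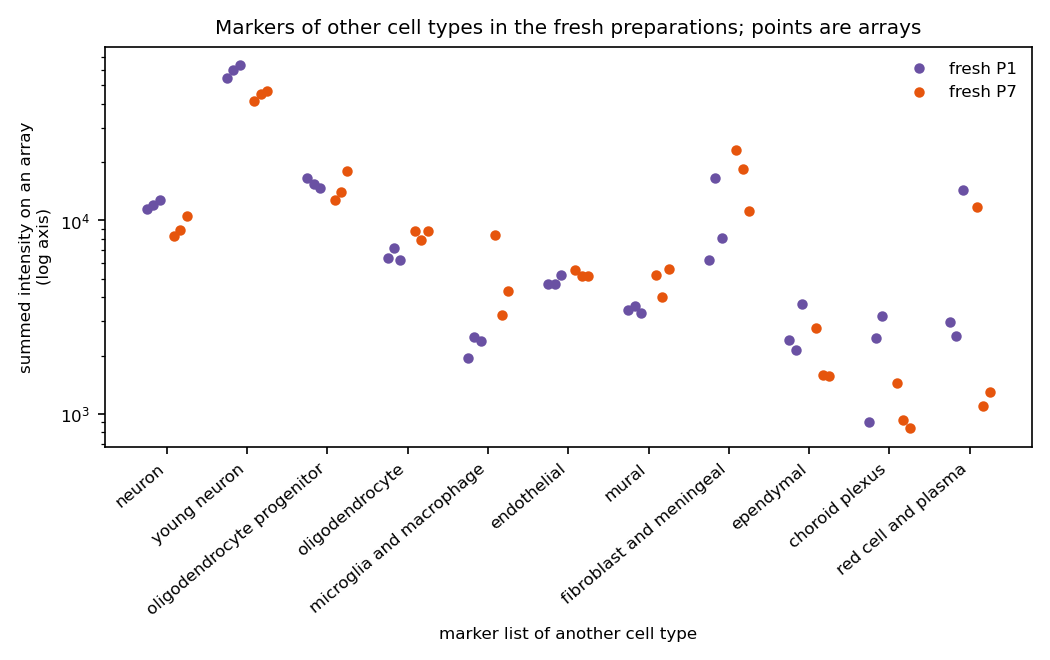
Summed intensity (y axis, log scale) of 11 marker lists of other cell types on each of the 3 fresh P1 arrays (purple) and 3 fresh P7 arrays (orange). Each point is an array. The neuron and young neuron lists are lower on every P7 array. The oligodendrocyte, mural, and microglia and macrophage lists are higher on every P7 array, the last with 1 array at 8390. The red cell and plasma list is high on 1 array of each age.

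The same 2 ages were also compared after culture, on arrays that share none with the fresh comparison. The P7 cultures differed from the P1 cultures in 158 genes (1.11%), 107 higher (0.753%) and 51 lower (0.359%). When only those 6 culture arrays were fitted, however, limma called 0 genes (815 higher and 591 lower at unadjusted p under 0.05), so these calls need the spread shared with the other groups. The higher count became 244 without the P7 culture replicate 2, 67 without P1 culture replicate 1 and 30 without P1 culture replicate 2, and the lower count 94 without P7 culture replicate 3 and 31 without P1 culture replicate 1. Of the 195 genes higher in fresh P7 cells, 7 were also higher in the P7 cultures (3.59%) and 5 lower (2.56%). Of the 26 lower in fresh P7 cells, 0 were higher and 1, Enc1, was lower. The signs matched for 126 of the 195 (64.6%) and 21 of the 26 (80.8%). Of all genes 49.6% had a positive change in culture, and their share of matching signs was not computed. The median change of the 195 was 1.37 in the fresh cells and 0.16 in the cultures. The 195 were chosen for a fresh change of at least 1, so these medians are no test of a loss in culture.

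The difference between the fresh and the cultured age change was itself called for 116 genes (0.816%), of which 54 were among the 195 and 4 among the 26. That count became 64 without fresh P7 replicate 3, 50 and 75 without fresh P1 replicate 2 and 3, 343 without P7 culture replicate 1, 61 without P1 culture replicate 1, and 58 when only these 12 arrays were fitted. These shares are not independent of the choice of genes, since the fresh change enters both. Hspa1a was at 6.62 on average in the P1 cultures and 6.92 in the P7 cultures, so its change of 0.30 there was 3.70 below that in fresh cells (adjusted p of the difference 0.000174). Grin2c, at 8.40 and 8.61, differed by 2.97 (adjusted p = 6.83e-05), and Slc13a5, at 7.21 and 7.22, by 2.12 (adjusted p = 0.000837).

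In 5 genes, picked out after their values were seen, the call in culture ran the other way: Agt, Pcdh20, Omg, Phactr3 and Kctd4. Agt was at 9.04 in the P1 cultures and 7.57 in the P7 cultures (change -1.47, adjusted p = 0.00327), where the fresh cells had risen by 1.52. Pcdh20 was at 7.12 and 5.60 (change -1.52, adjusted p = 0.017). Gabbr2 was at 7.94 and 6.57 in culture without a call (change -1.37, adjusted p = 0.09), and the difference from its fresh change was 3.95 (adjusted p = 0.00102).

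Several genes had near-equal means in both cultures, some near or above the fresh P7 level and others far below it. Pfkp stood at 10.75 and 10.70 in the cultures, near its 10.78 in fresh P7 cells and above the 9.07 of fresh P1 cells. Dbp stood at 10.33 and 10.14, above both fresh groups (8.31 and 9.86). Slc1a2, at 6.82 and 7.07, and Slc7a10, at 8.04 and 8.03, lay below both fresh groups (8.25 and 10.37, and 10.26 and 11.87). Thrb was at 9.83 in both cultures, and its difference of 1.93 between the fresh and cultured change was not called (adjusted p = 0.0512).

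**Figure D5:**
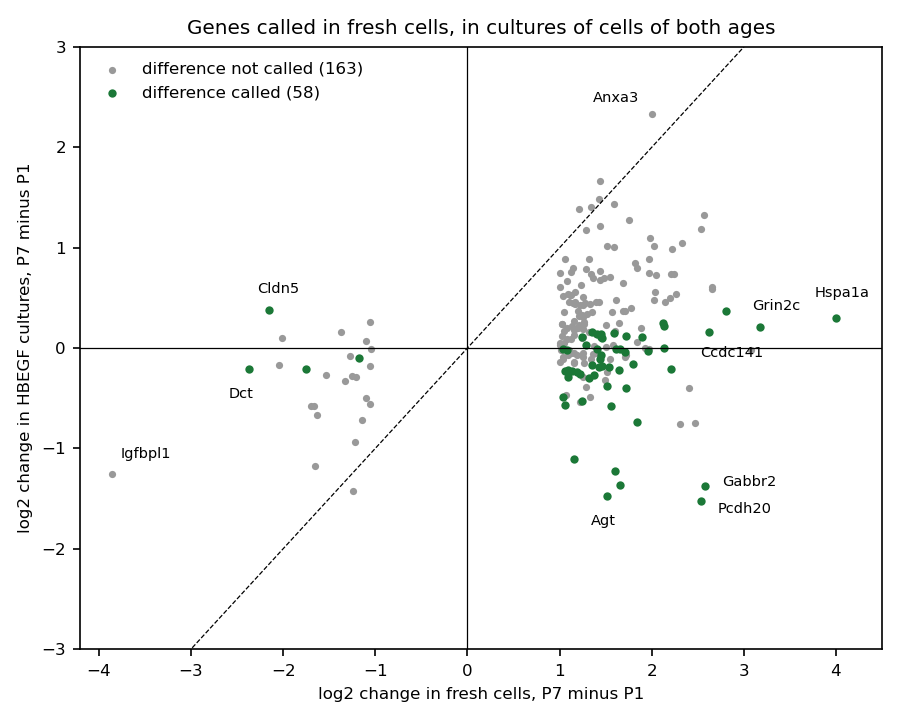
Log2 change between P7 and P1 in fresh cells (x axis) and in HBEGF cultures (y axis) for the 221 genes called in fresh cells. Green points are the 58 genes whose difference between both changes was called, grey points the other 163, and the dashed line marks equal changes. Most points lie nearer to 0 in culture than in fresh cells, and Gabbr2, Pcdh20 and Agt lie below -1 in culture. The genes were chosen by their fresh change, so their place nearer to 0 is no test of a loss in culture.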

How the data were processed

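RNA of 21 preparations (7 groups of 3) was hybridised to Affymetrix rat expression arrays, and the authors deposited 1 linear intensity for each of 31042 probe sets, computed with RMA per the submitters' processing notes (version not given in the sources used here). RMA normalizes arrays to a common distribution, so a shift of most genes would not show. Probes on this array lie mostly near the 3′ ends of transcripts. Of the probe sets, 20826 carried 1 gene symbol, 436 several and 9780 none in the platform annotation; several and none were left unnamed. The probe set with the highest mean stood for its gene (14217 genes).

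From the deposited intensities log2 was taken, and limma 3.58.1 (R 4.3.3) fitted the 7 group means with 1 shared spread (lmFit and eBayes, 14 residual degrees of freedom). P-values were adjusted by Benjamini-Hochberg over all probe sets. The script was tested on simulated data. With 3 arrays against 3, an exact 2-sided permutation test of a single gene cannot go below p = 0.1, so the fit across all genes was used. The number of arrays limits the precision.

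Named genes were the 20 largest rises, the 15 largest falls, a set of core genes, and in each list up to 6 called and 3 uncalled members by size of change; markers also by level. Gabbr1, Glul, Has2, Hsf1, Hsp90ab1, Kcnk10, Bmal1, Mbp, Mog, Mag, Pecam1 and Enc1 were added after their values were seen. The members and the 33 lists were chosen with earlier results of these data known. Alternatives were other arrays in the fit, each array left out, a replicate block, other scaling, filters, offsets, variance models and probe set rules.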

Additional observations from a re-analysis of the deposited data

Results flagged for a closer look

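For 25 of the named genes the age change in fresh cells differed from that in the HBEGF cultures by limma's test of the difference (adjusted p under 0.05 and a difference of at least 1 on the log2 scale). Values below are fresh minus cultured changes, and the count of such genes among all 14217 depends on which arrays are fitted, as given with the culture comparison.

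In 4 of the genes the change in culture was at least 0.58 in the opposite direction. The difference was 4.05 for Pcdh20 (adjusted p = 0.000112), 3.95 for Gabbr2 (adjusted p = 0.00102), 2.99 for Agt (adjusted p = 0.000112) and 2.15 for Gabrb2 (adjusted p = 0.0258).

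Among heat shock genes the difference was 3.70 for Hspa1a (adjusted p = 0.000174), 1.55 for Hsph1 (adjusted p = 0.0257), 1.27 for Dnajb4 (adjusted p = 0.0471) and 1.09 for Dnajb1 (adjusted p = 0.00351). Transport, receptor and metabolic genes gave 2.97 for Grin2c (adjusted p = 6.83e-05), 2.12 for Slc13a5 (adjusted p = 0.000837), 1.87 for Slc1a2 (adjusted p = 0.00316), 1.75 for Pfkp (adjusted p = 0.0166) and 1.62 for Slc7a10 (adjusted p = 0.0282).

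Regulators and clock genes gave 1.74 for Dbp (adjusted p = 0.0458), 1.63 for Hr (adjusted p = 0.0304), 1.60 for Rgs6 (adjusted p = 0.00437) and 1.34 for Nr1d1 (adjusted p = 0.028). Other rises gave 2.47 for Ccdc141 (adjusted p = 2.11e-06), 2.44 for Plekhd1 (adjusted p = 0.0416), 2.42 for Il12a (adjusted p = 0.00497), 1.91 for Hapln1 (adjusted p = 0.0452) and 1.51 for Col11a2 (adjusted p = 0.0023). Among the falls the difference was -2.52 for Cldn5 (adjusted p = 0.00301), -2.16 for Dct (adjusted p = 1.44e-05) and -1.55 for Slc38a5 (adjusted p = 0.0467).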

How the results depend on the processing

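The 195 genes higher in fresh P7 cells became 494 with no fold limit and 106 at an adjusted p under 0.01, and ran from 120 to 195 with 1 array left out. The 26 lower genes became 50 when only the 6 fresh arrays were fitted, 125 with no fold limit and 11 at an adjusted p under 0.01, and ran from 11 to 24 with 1 array left out. The cultures' 107 higher and 51 lower genes became 0 and 0 when only their 6 arrays were fitted, and ran from 30 to 244 and from 31 to 94 with 1 array left out. The 116 genes of the difference became 58 when only the 12 arrays were fitted and ran from 50 to 343 with 1 array left out. Quantile normalization, median centring, the filter on low values, log2 of intensity + 32, the other variance model and the other probe set rule kept both fresh counts within 1.5 times (156 to 199 higher, 20 to 30 lower); 202 of the 221 genes were shared with quantile normalization and 206 with median centring.

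Replicate numbers were tested as a block, and whether they pair the samples is not settled. Same-numbered P1 and P7 arrays deviated from their group means with correlations of 0.24, 0.36 and -0.10. These correlations were not set against those of differently numbered arrays. With the replicate block on the 6 fresh arrays 257 genes were higher and 62 lower, in the cultures 0 and 0 (1310 higher and 998 lower at unadjusted p under 0.05), and 143 differed between the changes.

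Of the 84 named genes called, 48 held with any 1 array left out and 36 did not. Turned signs were seen only in 9 named genes that were not called: with 1 array left out Ahsp ran from -0.64 to 0.02, Alas2 from -1.07 to 0.1, Aldh1l1 from -0.04 to 0.15, Cldn11 from -0.35 to 0.28, Hbegf from -0.33 to 0.07, Itgb5 from -0.05 to 0.18, Map2 from -0.05 to 0.24, Olig1 from -0.28 to 0.01 and Pdgfra from -0.24 to 0.14, and Itgb5 was at -0.04 with the mean over probe sets. The cause of these moves was not tested. Genes near the bottom of the scale, such as Ccdc141 at P1, have changes that signal over background limits.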

Other observations

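Some gene families were tallied only after their values had been seen, and are given as values. Of 58 measured cytochrome P450 genes 4 rose (6.9%, against 1.37% of all genes) and 0 fell, with a median change of -0.01. Cyp4f1 read 7.14, 7.22 and 7.36 at P1 and 9.51, 8.99 and 9.39 at P7 (change 2.05, adjusted p = 0.0195), Cyp2d4 rose by 1.50 (adjusted p = 0.00551), Cyp4v3 by 1.29 (adjusted p = 0.000668) and Cyp4f6, whose probes may read its close relatives too, by 1.13 (adjusted p = 0.0408). Cyp4v3 was not called when the mean over its probe sets was fitted. Cyp4f6 was not called on removing any single array (adjusted p up to 0.147), nor under quantile normalization or median centring, and Cyp4f1 was not called without P7 replicate 1 or 3 or P1 replicate 2 or 3 (adjusted p up to 0.0786). The count of 4 was 2 in those 4 fits and 3 without P7 replicate 2 or P1 replicate 1.

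Of 17 regulators of G protein signalling 3 rose (17.6%, against 1.37% of all genes). Rgs6 read 6.36, 6.48 and 6.34 at P1 and 8.28, 8.09 and 7.99 at P7 (change 1.72, adjusted p = 4.16e-05), Rgs7 rose by 1.55 (adjusted p = 0.0212; lost without P7 replicate 1 or 3 or P1 replicate 2 or 3) and Rgs1 by 1.24 (adjusted p = 0.00683), and the count was 1 without P7 replicate 1. Rgs1 was not called when only the 6 fresh arrays were fitted or with the offset of 32. It read 6.19, 4.92 and 5.73 on the P7 arrays, in the same order as the microglia and macrophage sums of 8390, 3260 and 4330, and their part in its change was not tested. Of 41 collagen genes Col11a2 rose, from 7.42, 7.55 and 7.74 to 9.31, 8.98 and 8.75 (change 1.45, adjusted p = 5.35e-05), and Col22a1 fell; without P1 replicate 2, 5 were higher. Of 294 transporters of the Slc families 6 rose and 1 fell (2.04% and 0.34%, near the 1.37% and 0.183% of all genes; median 0.08). Slc20a2, a phosphate carrier, rose from 9.03, 8.54 and 8.53 to 10.63, 10.29 and 10.13 (change 1.65, adjusted p = 0.00765), while its other probe set changed by 0.46.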
